A study of Mus musculus with 3 samples.

Results

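Small nuclear RNAs (snRNAs), small nucleolar RNAs (snoRNAs) and small Cajal body RNAs (scaRNAs) were examined in RNA from the cytosolic fraction of mouse macrophages. The members are the 2941 genes, of 55536 in the gene tables, whose transcript carries the GENCODE M21 biotype snoRNA (1507 genes), snRNA (1383 genes) or scaRNA (51 genes), and each has a single transcript. The cells were macrophages grown from bone marrow of C57BL/6J mice and treated with 100 ng/ml Lipid A, the part of bacterial lipopolysaccharide that Tlr4 recognises, for 20 min. Total RNA was depleted of ribosomal RNA, 1 µg was used per library, and the labels give a size range of 250 to 400 without a unit. The 3 libraries share this single condition; the labels number them 1, 2 and 3 as biological replicates, give all of them the same donor identifier and record neither age nor sex. Whether they came from separate cultures or animals is not stated, so an SD below covers only the spread among these samples, which may be technical. No control cells, other time or nuclear fraction are analysed here, and no comparison between conditions was made.

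These RNAs work as guides and scaffolds. The U1, U2, U4, U5 and U6 snRNAs, each bound by a ring of Sm or LSm proteins, form the major spliceosome that removes most introns, and U11 and U12 take the place of U1 and U2 in the minor spliceosome. Except for U6, these snRNAs pass through the cytoplasm, where the Sm ring is added, before they return to the nucleus. Box C/D snoRNAs (Snord genes) guide 2′-O-methylation and box H/ACA snoRNAs (Snora genes) guide pseudouridylation of ribosomal RNA. U3 and U8 act in the cleavage of the ribosomal RNA precursor, and scaRNAs guide the same modifications on snRNAs within Cajal bodies. Most snoRNAs and scaRNAs of mammals are cut from introns of host genes, whereas U1, U2, U4, U5, U11 and U12 are transcribed by RNA polymerase II from genes of their own.

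The sequences below are those of the GENCODE M21 transcripts on mm10, shown because the counts described further on turn on their length and on differences of single bases between copies. In the snRNAs the capitals mark a match to an Sm-type site (ATTTNTG or ATTTTTTG) and, in U1, the bases ACTTACCTG near its 5′ end, which pair with 5′ splice sites. In the snoRNAs and scaRNAs they mark a C box (TGATGA in the first 20 bases), a D box (CTGA in the last 12 bases) or the bases ACA that stand 3 bases before the end. The first is a U1 gene (chr11:87422867-87423030, plus strand, in an intron of Tex14) whose sequence 7 genes share, and the second is the U2 gene Rnu2-10 (chr11:101658238-101658428, plus strand, outside other genes), whose sequence 4 genes share.
Rnu1a1: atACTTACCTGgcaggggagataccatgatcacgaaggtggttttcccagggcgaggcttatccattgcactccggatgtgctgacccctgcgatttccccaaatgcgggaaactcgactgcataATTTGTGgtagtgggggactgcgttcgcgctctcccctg
Rnu2-10: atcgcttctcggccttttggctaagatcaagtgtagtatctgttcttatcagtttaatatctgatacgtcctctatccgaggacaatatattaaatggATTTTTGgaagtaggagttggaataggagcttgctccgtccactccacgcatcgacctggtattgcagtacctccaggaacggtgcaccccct
The unnamed snRNA Gm24265 (chr5:115489459-115489599, plus strand) had the highest TPM of any snRNA under 150 nt in the gene table, and its sequence reads as that of U4, a name the annotation does not give it. The U12 gene Rnu12 (chr15:83149644-83149794, plus strand) had most of its counts in 1 of the quantifications. Gm25047 (chrX:36363899-36364002, plus strand) had the highest level of any member that the gene table left at 0, and its nearest named snRNA was Rnu6, at an identity of 0.794. It holds none of the letters searched and so has no capitals.
Gm24265: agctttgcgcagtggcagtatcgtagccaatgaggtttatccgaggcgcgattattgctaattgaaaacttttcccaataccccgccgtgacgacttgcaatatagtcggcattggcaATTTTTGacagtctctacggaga
Rnu12: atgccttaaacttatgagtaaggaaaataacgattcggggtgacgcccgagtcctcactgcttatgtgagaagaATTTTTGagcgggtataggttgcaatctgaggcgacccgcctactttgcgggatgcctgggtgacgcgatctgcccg
Gm25047: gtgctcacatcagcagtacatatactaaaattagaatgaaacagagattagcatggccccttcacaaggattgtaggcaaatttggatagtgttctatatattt
The U3 gene Rnu3b1 (chr11:87443237-87443452, plus strand), the H/ACA snoRNA Snora73b (chr4:132352322-132352526, minus strand, in an intron of Rcc1) and the C/D snoRNA Snord22 (chr19:8725866-8725991, plus strand, overlapping an exon of Snhg1) are examples of the snoRNAs with counts. Scarna13 (chr12:105031075-105031349, minus strand, within Snhg10 and overlapping the microRNA gene Mir3069) and the unnamed scaRNA Gm22009 (chr3:69085105-69085447, minus strand, in an intron of Kpna4) are examples of the scaRNAs. For Gm22009, which is 343 nt long, positions 1 to 300 are shown.
Rnu3b1: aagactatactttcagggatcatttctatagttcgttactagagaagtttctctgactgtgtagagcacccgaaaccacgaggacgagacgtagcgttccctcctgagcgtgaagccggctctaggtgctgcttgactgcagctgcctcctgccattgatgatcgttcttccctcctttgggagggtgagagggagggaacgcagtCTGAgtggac
Snora73b: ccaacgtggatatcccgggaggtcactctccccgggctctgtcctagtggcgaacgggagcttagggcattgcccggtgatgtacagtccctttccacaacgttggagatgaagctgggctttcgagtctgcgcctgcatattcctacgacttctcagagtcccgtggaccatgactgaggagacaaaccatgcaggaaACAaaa
Snord22: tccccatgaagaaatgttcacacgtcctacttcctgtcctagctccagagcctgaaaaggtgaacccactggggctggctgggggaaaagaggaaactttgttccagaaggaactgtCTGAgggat
Scarna13: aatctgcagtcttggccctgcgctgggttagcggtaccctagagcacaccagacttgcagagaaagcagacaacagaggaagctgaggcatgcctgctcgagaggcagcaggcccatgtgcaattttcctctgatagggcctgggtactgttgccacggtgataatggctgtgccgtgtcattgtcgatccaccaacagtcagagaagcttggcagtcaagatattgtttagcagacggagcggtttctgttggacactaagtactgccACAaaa
Gm22009: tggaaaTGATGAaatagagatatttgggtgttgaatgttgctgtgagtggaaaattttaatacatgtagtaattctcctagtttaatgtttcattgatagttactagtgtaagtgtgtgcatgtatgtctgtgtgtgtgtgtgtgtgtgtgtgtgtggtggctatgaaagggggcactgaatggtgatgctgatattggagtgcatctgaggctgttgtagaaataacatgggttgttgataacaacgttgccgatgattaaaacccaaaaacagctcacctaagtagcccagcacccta

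Searched on the transcript strand only, the Sm-type site was held by 300 of the 1383 snRNAs (21.7%), 52 of the 1507 snoRNAs (3.45%) and none of the 51 scaRNAs. Among the 35 snRNAs with 10 or more counts in every library in either quantification, 30 held it (85.7%). The U1 start was held by 55 snRNAs (3.98%) and by 12 of those 35. A C box and a D box together were found in 297 snoRNAs (19.7%), and the ACA in 276 (18.3%). In scaRNAs the ACA was more frequent, at 25 of 51 (49.0%). A match here is a run of letters and no more, and degenerate boxes are missed. Of the members, 2757 have a Gm symbol with no family name, which leaves 184 with a name: 11 snRNAs, 165 snoRNAs and 8 scaRNAs.

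Each library came with a gene table, derived from alignments to the transcriptome, and with a second transcript table derived directly from the reads, which was summed to genes. In the gene table, 65 members (2.21%) reached 1 TPM (TPM is a level per transcript length, scaled to the same total in each library) in every library, against 16.8% of all 55536 genes. With 10 or more expected counts in all 3 libraries as the limit, 41 members (1.39%) passed, against 22.3% of all genes. By class, 30 of 1383 snRNAs, 26 of 1507 snoRNAs and 9 of 51 scaRNAs reached 1 TPM, and 23, 12 and 6 reached 10 counts. scaRNAs therefore had the highest share at both limits (17.6% and 11.8%), followed by snRNAs (2.17% and 1.66%) and snoRNAs (1.73% and 0.796%). In the second table, 35 snRNAs, 20 snoRNAs and 8 scaRNAs reached 10 counts in all libraries, 63 in all, and these include each of the 41. Of all 55536 genes, 13729 passed that limit there. Neither table assigned a count in any library to 2278 members.

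The members took 0.855%, 0.637% and 1.24% of all TPM in replicates 1, 2 and 3 (0.909% ± 0.303, SD, n = 3), but only 0.0247%, 0.0278% and 0.0466% of the counts on gene rows (0.0330% ± 0.0119, SD, n = 3). snRNAs made up most of the TPM, at 0.744% ± 0.260 (SD, n = 3), while snoRNAs held 0.115% ± 0.0335 and scaRNAs 0.0500% ± 0.0113. In counts the order of the last pair was the other way round: snRNAs held 173 ± 75.9 CPM (expected counts scaled to the same total of counts on gene rows, with no length correction), scaRNAs 110 ± 33.4 and snoRNAs 47.7 ± 11.3 (SD, n = 3). The order of scaRNAs and snoRNAs in counts rested on a single gene, Gm22009. With it the 51 scaRNAs had 2137, 8671 and 5379 expected counts in replicates 1, 2 and 3, against 1126, 3344 and 2256 on the 1507 snoRNAs. Without it they had 531, 1630 and 1171, fewer than the snoRNAs in each library. Gene rows held 27282444, 81509889 and 37131774 expected counts in replicates 1, 2 and 3, so a count of 0 allows up to 3 counts, or 0.110, 0.0368 and 0.0808 CPM, counting error only.

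The share of members with a level in the gene table was higher the longer they were. Members are short, with a median of 108 nt and a range of 35 to 414 nt. Its effective length, the number of positions at which a fragment could start, was 0 for 1874, 1874 and 1830 members in replicates 1, 2 and 3. Those were the members of up to 127 nt in replicates 1 and 2 and of up to 126 nt in replicate 3, and each is given 0 TPM whatever its counts. None of the 655 members under 100 nt had a count in the gene table, while 98 had one in the second table. Of 2004 members of 100 to under 150 nt, 40 had a count in the gene table, 461 in the second table, and 17 reached 1 TPM in all libraries. Among the 242 of 150 to under 200 nt, 32 reached 1 TPM (13.2%), among the 35 of 200 to under 300 nt 13 did (37.1%), and of the 5 of 300 nt or more 3 did. The second table showed the same order in the share of members with a count, at 15.0%, 23.0%, 31.4%, 54.3% and 60.0% from the shortest to the longest bin.

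**Figure D1:**
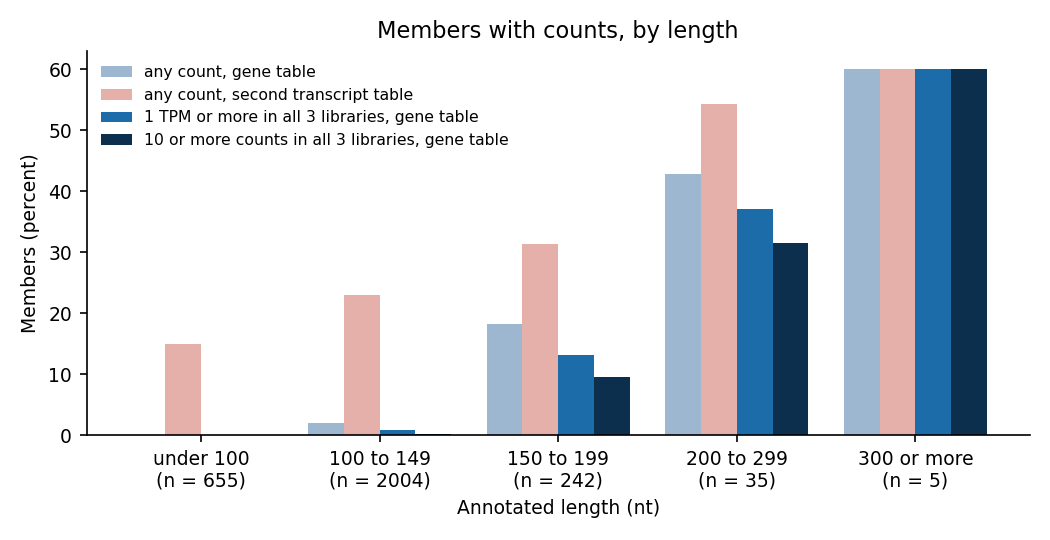
Share of members (percent) with any count in each table, at 1 TPM or more and at 10 or more counts in all 3 libraries of the gene table, by annotated length in nt; n is the number of members in a bin. Under 100 nt no bar of the gene table stands above 0, while 15.0% of members have a count in the second table.

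Just above that boundary, few reads made a high TPM. A single count on the scaRNA Gm25492 (129 nt, effective length 1.14 in replicate 1) was worth 17.3, 5.17 and 10.8 TPM in replicates 1, 2 and 3. The same count on Rnu1a1 (164 nt) was worth 2.97, 0.774 and 1.63 TPM, on Rnu2-10 (191 nt) 1.34, 0.335 and 0.716 TPM, and on Scarna2 (414 nt) 0.108, 0.0301 and 0.0639 TPM. For Actb, an mRNA, it was worth 0.0118 TPM in replicate 1. Of the 65 members at 1 TPM in all libraries, 25 lacked 10 counts in at least 1 of them: 7 snRNAs, 15 snoRNAs and 3 scaRNAs. The snoRNA gene Gm26447, which overlaps an exon of Eif4a2, stood at 104, 67.4 and 192 TPM from 5.98, 12.97 and 17.94 counts. Conversely, Snord22 had 24.99, 29.97 and 42.97 expected counts and 0 TPM in each library, at an effective length of 0. Nearest to the limit of 10 counts were Gm26083, whose lowest library had 10.8 counts, and Snora74a, whose lowest had 7.91. Nearest to 1 TPM were Gm24497, lowest at 1.03 TPM, and Gm24924, lowest at 0.01 TPM.

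U1, the snRNA that recognises 5′ splice sites, is annotated here as 34 genes, 4 with a U1 symbol and the rest placed by an identity of at least 90% to a named copy. Together they held 43.7, 31.8 and 78.3 CPM in replicates 1, 2 and 3 (51.2 ± 24.2, SD, n = 3), and 3517, 1995 and 4724 TPM. The highest snRNA by mean TPM was Gm22513 (chr12:54696782-54696945, outside other genes), with 916, 501 and 1306 TPM from 309, 648 and 799 counts. It differs from Rnu1a1 by a single base, T60C, counted from 1 at the 5′ end, with the base of Rnu1a1 first. Rnu1a1 and the 6 genes of identical sequence had 307, 143 and 385 TPM each, from 104, 185 and 236 counts each, and 726, 1296 and 1649 counts in sum. Replicate 3 was highest and replicate 2 lowest in TPM in both. In sum the set of 7 had 2152, 1003 and 2695 TPM, above Gm22513 in each library, although each copy alone was below it. The reads of identical copies cannot be assigned to a locus, and the equal values show that the estimate divided them evenly. Of the named U1 genes other than Rnu1a1, Rnu1b1 and Rnu1b2 had 4.30, 2.63 and 7.16 TPM each and Rnu1b6 had 8.09, 3.02 and 12.9 TPM, from fewer than 9 counts in any library.

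U2, which pairs with the branch point, had more counts than any other family: 81.1, 95.7 and 177 CPM (118 ± 51.6, SD, n = 3) over 14 genes of 191 nt. Its TPM of 2974, 2613 and 4702 was of the size of that of U1, whose genes are shorter. Rnu2-10 and 3 identical genes had 402, 320 and 563 TPM each, from 298.97, 957 and 787 counts each. Gm25939 (3 differences from Rnu2-10: T69C, C78T and G109C) had 406, 398 and 698 TPM. Gm25360, with 4 differences, was lower, at 109, 74.7 and 147 TPM, and Gm22973, with 9, had 14.8, 5.69 and 15.0 TPM from 11, 17 and 21 counts. Replicate 3 was the highest library for each of these genes. Level did not follow the number of differences. Gm26316, with 1 (C170T), had only 24.35, 17.91 and 29.07 TPM, and Gm25813, with 2, had 0, 1 and 0 counts.

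Another trio of U2 genes shows how the split of reads between near-identical copies changed from library to library. Gm23444 and Gm23472 share a sequence that differs from Rnu2-10 by G109C, and Gm24497 has G109C and C186A. In replicate 1 the gene table gave each of them 202 counts. In replicate 2 it gave 1228 to each of the identical pair and 36.3 to Gm24497, and in replicate 3 it gave 1089 to each and 1.44 to Gm24497. The TPM of Gm24497 accordingly read 271, 12.2 and 1.03, the second largest SD of log2(TPM + 1) among members at a mean of 10 TPM or more (3.57). The second table assigned Gm24497 329, 916 and 1178 counts in the same libraries. Summed over the trio, the gene table had 605, 2493 and 2179 counts, or 22.2, 30.6 and 58.7 CPM, and in the second table the trio had 900, 3122 and 2701 counts.

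**Figure D2:**
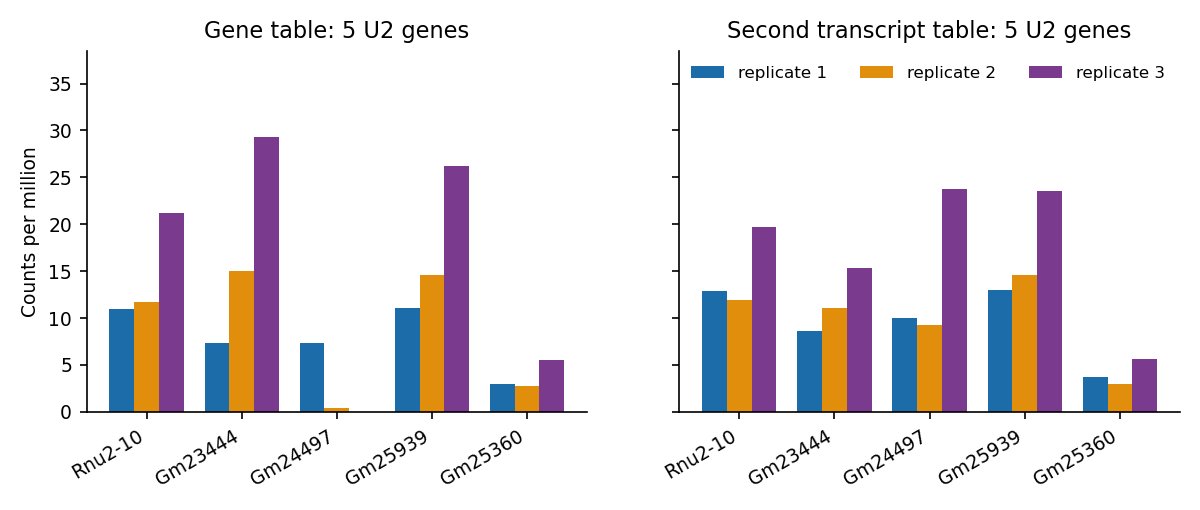
Scaled counts (CPM) on 5 U2 genes in each replicate (bars, from 0), in the gene table and in the second transcript table. Gm24497 has 7.39, 0.445 and 0.0388 CPM in the gene table, whereas in the second table its highest library is replicate 3, as for the other 4 genes.

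Other members with a large spread included further near-identical sequences. Rnu3a, a U3 gene on chromosome 10, is listed under 2 gene IDs that start at the same base and end 1 base apart (213 and 214 nt). Replicate 1 had 39 counts on the longer ID and 0 on the shorter, and replicates 2 and 3 had 120 and 79 counts on the shorter and 0 on the longer. Added together they had 1.43, 1.47 and 2.13 CPM, and the second table placed its 134, 331 and 225 counts on the longer ID. Gm24924, a further U1 gene that differs from Rnu1a1 by a single base, had 0, 264 and 0.06 counts, and 0, 19.4 and 0 in the second table. Gm25791, a snoRNA gene that overlaps an exon of Taf1d, completes the 5 of largest SD. Its sequence has no identical copy, and its spread rests on 1 or 2 reads a library, with 20.2, 2.81 and 11.8 TPM from 1.99, 0.97 and 1.96 counts. Of the 60 groups of members with identical sequence, which hold 281 genes and up to 43 genes each, 7 groups had counts in the gene table and 17 in the second, and the counts were even within each of them. The 41 genes with 10 or more counts in all libraries have 27 distinct sequences.

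The pair Gm24265 and Gm24407 (chr5:115490254-115490394), of equal length and 1 of them shown above with its U4-like letters, had 298, 315 and 490 TPM and 129, 174 and 278 TPM. These levels came from 37, 139 and 104 counts and 16, 77 and 59 counts, and the second table gave 97.0, 282 and 234 and 38.1, 137 and 101 counts. Replicate 3 was highest in TPM for both, and every value of Gm24265 lay above those of Gm24407 from the same library. U5, the snRNA that holds the exons at the splice, had 0 counts in the gene table over its 8 genes of 116 nt. In the second table U5 had 103, 217 and 155 counts (3.13, 2.19 and 3.12 CPM), of which Gm25099 had 34.9, 86.3 and 62.7 and Gm25313 had 37.5, 65.3 and 41.0. U6, at the catalytic centre of the spliceosome, was taken as 306 genes of 102 to 111 nt, by symbol or an identity of at least 90%. None had a count in the gene table, and they shared 56.0, 95.9 and 144 counts in the second, spread over 106 genes of which none reached 10 in all libraries. Sequences below that identity whose nearest named member was Rnu6 did reach 10 there. Gm25047 had 192, 413 and 237 counts, and Gm24798 and Gm22108, at an identity of 0.860, had 13.5, 16.5 and 19.5 each.

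In the minor spliceosome, U12 and U11 differed in what was counted. Rnu12 had 7, 16 and 16 counts in the gene table (exact 95% Poisson interval for replicate 1: 2.81 to 14.4) and 34.6, 21.4 and 44.9 TPM. The second table gave it 73.9, 187 and 159 counts, a mean 10.8 times as high. Rnu11 (chr4:132270080-132270213, 134 nt) had 0 counts in both tables in all libraries. Rnu7, the U7 snRNA that guides the 3′ end cleavage of histone mRNAs, is 62 nt long and also had 0 in both.

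U3, the most abundant snoRNA of mammalian cells, had 11.5, 12.6 and 17.7 CPM (13.9 ± 3.33, SD, n = 3) and 247, 201 and 276 TPM over 18 genes. Rnu3b1, Rnu3b2, Rnu3b3 and Rnu3b4 are identical genes in an intron of Tex14 with 53.9, 44.0 and 60.3 TPM each, from 68.5, 227 and 145 counts each. Each also has a second gene ID, 1 base shorter, that was at 0 in both tables. In the second table the U3 genes had 802, 2210 and 1495 counts, 2.25 times those of the gene table. U8 (Snord118, chr11:69073427-69073561, 135 nt), which acts on the large ribosomal subunit precursor, had 0 counts in the gene table and 26, 76 and 53 in the second.

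snoRNAs proper were sparse. Of 97 Snord genes, 4 had a count in the gene table and 40 in the second, and 2 reached 10 counts in all libraries: Snord22 and Snord17. Snord17, a C/D snoRNA of 238 nt in an intron of Snx5, had 9.71, 3.87 and 17.5 TPM from 18, 29 and 61 counts. Snord15a and Snord15b, in Rps3, had 17.0, 15.5 and 29.2 TPM and 39.0, 15.8 and 33.5 TPM, each from 10 counts or fewer. Of 42 Snora genes, 7 had a count in the gene table and 26 in the second. Snora73a and Snora73b are H/ACA RNAs of 205 nt that act in ribosomal RNA processing and lie in Rcc1. Snora73a also overlaps an exon of the noncoding gene Snhg3. Both reached 10 counts, with 30.1, 19.9 and 30.2 TPM for Snora73a and 34.0, 33.4 and 36.3 TPM for Snora73b. In TPM Snora73b varied little (34.5 ± 1.53 TPM, SD, n = 3), but in CPM it had 1.27, 1.69 and 1.88 in replicates 1, 2 and 3. Its values lay above those of Snora73a in each library. The highest snoRNA genes by TPM carry no family name: Gm25776 in an intron of Gtf2a1 (152, 105 and 198 TPM from 21, 52 and 47 counts) and Gm23262, which overlaps an exon of Eif4g2 (160, 97.3 and 134 TPM from 61.9, 145 and 94.8 counts). Gm23547, overlapping an exon of Phb2 and 271 nt long, had more counts than either (93.6, 383 and 208) but 31.97, 33.1 and 38.6 TPM.

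The scaRNAs had the most counts per gene. Gm22009, in an intron of the importin gene Kpna4, held more counts than any other member: 1606, 7041 and 4208 in replicates 1, 2 and 3, or 58.9, 86.4 and 113 CPM. Its TPM of 272, 320 and 408 had the same order of libraries, and the second table gave 1639, 7038 and 4317 counts. Scarna10, which guides modification of snRNA, carries the biotype snoRNA and overlaps an exon of Ncapd2, had 92.0, 67.1 and 93.7 TPM from 469, 1292 and 845 counts. Scarna2 (chr3:108554338-108554751), the longest member, had 40.8, 34.5 and 49.4 TPM from 378, 1144 and 773 counts. Scarna13 in Snhg10 followed with 19.5, 12.9 and 20.2 TPM, Scarna6 in Atg16l1 with 9.95, 6.49 and 9.17 TPM, and the unnamed Gm25395, also in Atg16l1, with 16.9, 17.8 and 34.9 TPM. On the TPM scale Gm25395 was well above its other libraries in replicate 3, while Scarna6 from the same host was highest in replicate 1. In CPM both were highest in replicate 3, at 1.83, 2.55 and 5.12 for Gm25395 and 0.990, 0.859 and 1.24 for Scarna6. Scarna8 and Scarna3a had a single count in each of replicates 2 and 3 and none in replicate 1, and the 3 other Scarna symbols had counts in the second table only. Without Gm22009 the members' share of counts was 0.0244% in place of 0.0330%.

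**Figure D3:**
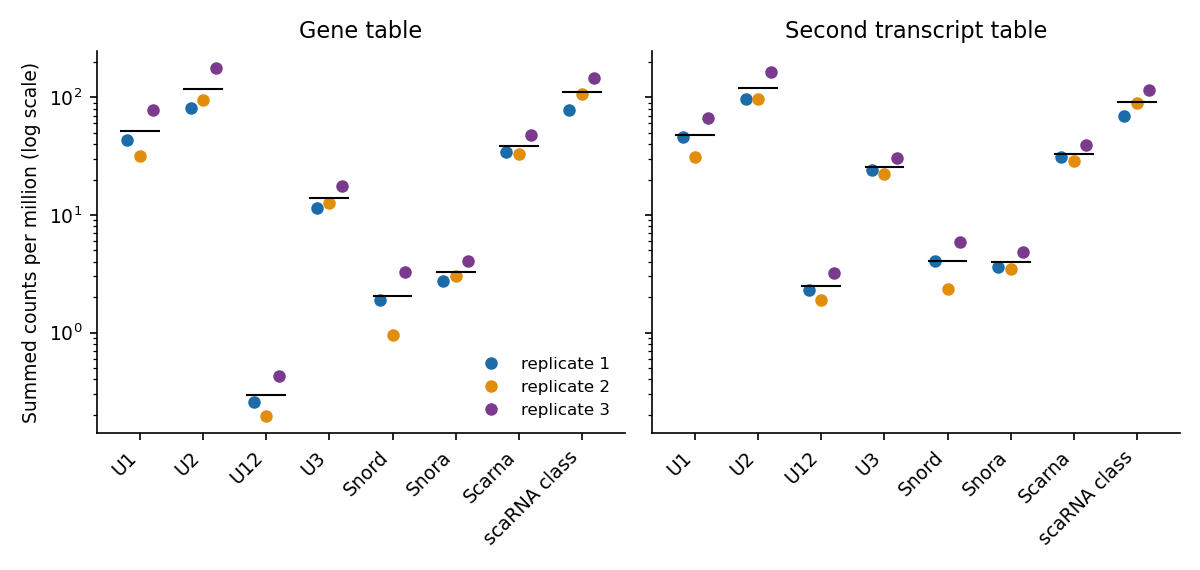
Summed CPM (log scale) of U1, U2, U12, U3, the Snord, Snora and Scarna symbols and the scaRNA biotype in each replicate (points) with their mean (line), in the gene table and the second transcript table. Replicate 3 is the highest point in each group and table, and U12, Snord and U3 differ most between the tables, at 2.48, 4.10 and 25.6 CPM in the second against 0.295, 2.05 and 13.9 on average.

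Of the 41 members with 10 or more counts in all libraries, 22 lie inside another gene on the same strand, within 14 hosts, and 17 of the 22 are in protein-coding hosts. Where several genes contained a member, a protein-coding gene was taken as its host before a noncoding one, which favours the 17. By context, 7 members that overlap an exon of another gene passed (3.52% of such members), as did 15 of 811 in an intron (1.85%), 19 of 1400 that touch no other gene (1.36%) and 0 of 531 that overlap a gene on the other strand only. snRNAs made up 18 of the 19 outside genes and snoRNAs none. The hosts' own levels ranged from 0.00333 TPM (Tex14) to 145 TPM (Snx5), with a median of 3.06 TPM. Tex14, the noncoding gene D230017M19Rik around the U2 cluster of chromosome 1, and Snhg10 were below 1 TPM on average, at 0.00333, 0.0167 and 0.347 TPM. Gm22009 had 80.9% as many counts as all of Kpna4 (13.97 ± 1.86 TPM, SD, n = 3), Snora73b 21.7% as many as Rcc1, and Snord17 0.119% as many as Snx5. Whether the counting used strand is not stated in the labels or files, and reads of a host's unspliced RNA were not told apart from those of the small RNA.

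Between libraries, replicate 3 stood apart for the members. Each of the 41 had its highest CPM in replicate 3, against 21.0% of the 12394 genes that passed the same limit. These genes are not independent, since 27 sequences lie behind them. Their CPM in replicate 3 was 1.67 times that in replicate 1 at the median (range 1.13 to 3.97) and 1.81 times that in replicate 2 (range 1.11 to 4.62), where the medians over all such genes were 0.929 and 0.950. snRNAs differed most from replicate 2, at a median of 2.55, against 1.41 for the snoRNAs and 1.54 for the scaRNAs. In the second table, 54 of 63 members were highest in replicate 3, against 18.7% of 13729 genes. On the TPM scale of the gene table it was 38 of 40, the exceptions being Gm23262 and Scarna6, against 10.8% of 12393 genes. On the TPM scale of the second table the order was less uniform: 37 of 63 members were highest in replicate 3 and 24 in replicate 1. There it was 27 of 35 snRNAs, but 7 of 20 snoRNAs and 3 of 8 scaRNAs, and the median ratios of replicate 3 to replicate 1 were 1.10, 0.913 and 0.877 for the 3 classes. The median SD of log2(TPM + 1) was 0.72 over the 85 members at a mean of 1 TPM or more and 0.16 over the 9730 genes at that level. The 0.72 became 0.42 without replicate 3, 0.47 without replicate 2, 0.73 without replicate 1 and 0.32 in the second table. With 10 counts in all libraries it was 0.45 over 40 members and 0.16 over 9619 genes. With 3 libraries of 1 condition no test of this difference was made.

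**Figure D4:**
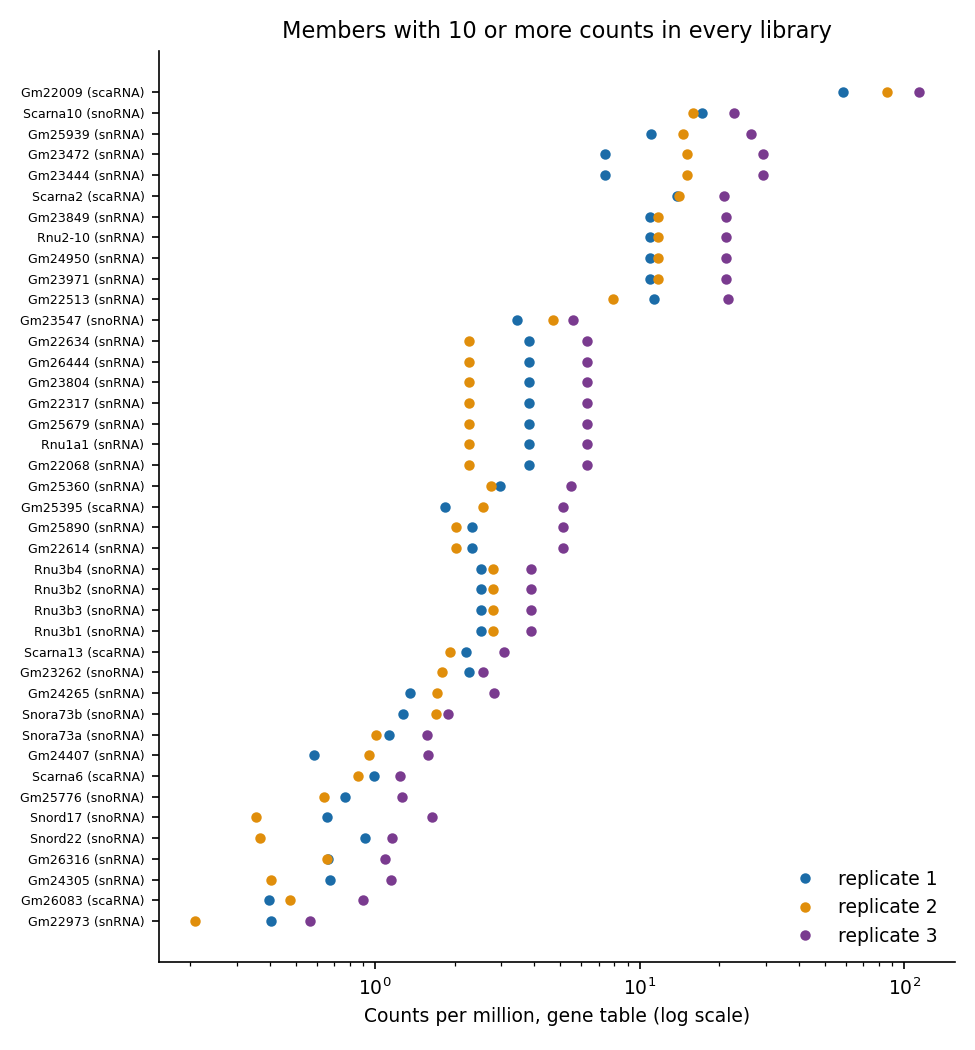
CPM (log scale) of the 41 members with 10 or more counts in every library, with a point for each replicate, ordered by mean. The point of replicate 3 is the rightmost in each row, and genes with the same sequence show the same 3 points.

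Other noncoding RNAs, nuclear and cytosolic, also differed between the libraries. Malat1, a noncoding RNA of nuclear speckles, had 359, 248 and 763 TPM, and Neat1, the scaffold of paraspeckles, had 31.7, 23.6 and 83.9 TPM. Their CPM in replicate 3 was 2.84 and 2.34 times that in replicate 1 and 3.61 and 4.04 times that in replicate 2. Kcnq1ot1 was below 1 TPM in each library, from 298, 346 and 726 counts. Its CPM in replicate 3 was 1.79 times that in replicate 1 and 4.60 times that in replicate 2. Meg3 was at 0. Among RNAs of RNA polymerase III, the 7SK RNA Rn7sk and the RNA of RNase MRP, Rmrp, were 1.59 and 1.67 times as high in CPM in replicate 3 as in replicate 1, and the RNase P RNA Rpph1 was 1.27 times as high but highest in replicate 2. The 7SL RNA genes Rn7s1 and Rn7s2, whose product works in the cytosol, were each 1.39 times as high in CPM in replicate 3 as in replicate 1 and 1.04 and 1.03 times as high as in replicate 2. The part of nuclear RNA in the members' order of libraries was not tested. All 7 macrophage markers, Csf1r, Adgre1, Cd68, Lyz2, Itgam, Mertk and Cd14, were at 17.6 TPM or more in each library. The 14 markers of neutrophils, T and NK cells, B cells, erythroid cells and fibroblasts were at 0.27 TPM or less. No pair of libraries agreed within counting noise, as 1 library deposited again would (chi-square per degree of freedom 45.5 to 64.5 over the genes).

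The quantifications were compared for each member by its mean over the libraries. In TPM, 118 of 124 members at a mean of 1 TPM in either table lay at least 2-fold apart, 79 of them higher in the gene table. On this scale that was near the background, since 91.7% of 9925 genes were as far apart and the median gene was 2.45-fold higher in the gene table. With both tables rescaled over protein-coding genes it was not. There 462 of 488 members at a mean of 1 or more in either lay 2-fold apart, against 2771 of 14424 genes. Of the 462, 399 were higher in the second table. Nuclear-encoded protein-coding genes took 24.97%, 22.0% and 19.6% of TPM in the gene table and 10.5%, 8.92% and 6.71% in the second. In counts, 38 of 81 members at a mean of 10 in either table were at least 2-fold apart (46.9%), against 18.0% of 16212 genes, and 36 of the 38 were higher in the second table. By class, 18 of 40 snRNAs, 18 of 33 snoRNAs and 2 of 8 scaRNAs were 2-fold apart. Of the 41 members with 10 counts in all libraries in both tables, 5 were 2-fold apart, Gm24265 and the 4 genes Rnu3b1 to Rnu3b4. That limit leaves out members near 0 in either table, so a smaller share than 38 of 81 follows in part from the choice. The share of all genes under the same limit was not taken.

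TPM differed more between the tables than counts did. For the 23 members of 150 to under 200 nt with 10 counts in both, the second table had 1.24 times the counts at the median, and the TPM of the gene table was 10.2 times that of the second. For the 11 of 200 to under 300 nt these ratios were 1.19 and 3.30, and for the 3 of 300 nt or more 1.06 and 3.01. After both tables were rescaled over protein-coding genes, the TPM ratios became 3.96, 1.28 and 1.17 for the same bins. Rnu1a1, for example, had an effective length of 6.66 nt in the gene table and 32.6 nt in the second in replicate 1. Scarna2 had 183 and 176 nt.

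**Figure D5:**
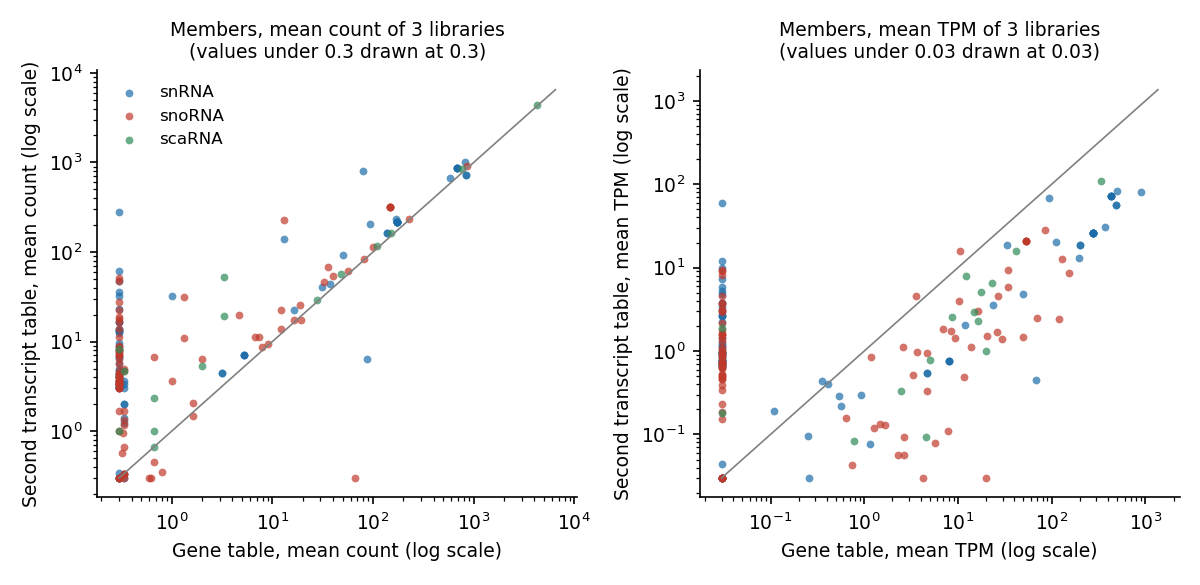
Mean count (left) and mean TPM (right) of members over the 3 libraries in the gene table against the second transcript table, both axes on a log scale, with a point for each of 193 members (a count in the gene table, a mean of 3 or more in the second, or an Rnu or Scarna symbol or Snord118), coloured by class, and the line of equal values. In TPM 93 lie below the line (higher in the gene table) and 92 above it, the rest being at 0 in both, and the column at the left edge holds 91 members without a count in the gene table.

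The gene table gave most members no count. Of 2839 members without a count there, 15 had 10 or more counts in all libraries in the second table: 9 too short for an effective length above 0 in all libraries and 6 longer. Gm25047, the U6-related RNA shown above, led with 192, 413 and 237 counts, or 74.3, 53.6 and 49.8 TPM, and the U5 gene Gm25099 stood at 12.5, 10.9 and 12.8 TPM. Among the longer ones were Snord118 and Snora31, an H/ACA snoRNA in Tpt1 with 10, 21 and 22 counts. Several others had far fewer counts in the gene table than in the second. Gm22442, a scaRNA of 144 nt in Chd3, had 1, 3 and 6 counts against 35, 74 and 50, and Gm24336, a snoRNA of 146 nt in Cwf19l1, had 0, 2 and 2 against 16, 39 and 40. In the other direction, 6 members with a count in the gene table had none in the second, of which the shorter ID of Rnu3a reached 10 TPM on average. Posterior mean TPM, a further column of the gene table, put 892 members at the 1 TPM limit or above in each library, and 800 of these had no count in any library.

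mRNAs of the proteins that bind, build and carry these RNAs were present in the same fraction. Of 99 protein-coding symbols in 12 lists, 91 (91.9%) reached 1 TPM in each library, against 16.8% of all 55536 genes, with a median of 4.75 TPM. All but Snrpn had 10 or more counts in each library, so most genes below 1 TPM were not without reads. Shq1, for example, had 120, 313 and 134 counts, and Lsm11 had 190, 592 and 247. For box C/D snoRNAs, all 5 listed proteins passed, led by Snu13 (12.6 ± 2.99 TPM) and the methyltransferase Fbl (11.0 ± 1.18 TPM, SD, n = 3). For box H/ACA, 5 of 6 passed, led by Nhp2 (10.1 ± 1.76 TPM) and Nop10 (6.97 ± 1.44 TPM), and the assembly factor Shq1 was below 1 TPM in replicates 2 and 3 (1.08, 0.83 and 0.72 TPM). All 7 snoRNP assembly factors passed, with Pih1d1 (7.40 ± 1.80 TPM) and Ruvbl2 (4.30 ± 0.992 TPM) highest. Among the genes for Cajal body proteins and for the SMN complex, which loads the Sm ring in the cytoplasm, 8 of 12 passed. Strap (13.5 ± 0.968 TPM) and Gemin7 (11.8 ± 1.78 TPM) were highest, Gemin2, Gemin4 and Gemin6 were near 1 TPM, and Gemin8 was at 0.32, 0.32 and 0.42 TPM.

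Of the 8 Sm protein genes 7 passed, with a median of 8.68 TPM over the list, and Snrpe (27.4 ± 4.69 TPM) and Snrpb (25.8 ± 3.44 TPM) were highest. Snrpn was listed at 0 in each library. All 12 major snRNP genes passed, led by the U1 protein Snrnp70 (21.9 ± 2.08 TPM) and the U2 protein Sf3b1 (19.2 ± 3.00 TPM). All 7 minor snRNP genes passed too, led by Zcrb1 (17.8 ± 1.53 TPM) and Zmat5 (7.48 ± 1.20 TPM). Among the 12 genes of U6 and the LSm ring, Ssb, the La protein (21.0 ± 1.97 TPM), and Lsm4 (13.5 ± 1.51 TPM) were highest. Cap, export and import factors all passed (6 of 6), led by Xpo1 (14.5 ± 1.37 TPM) and the cap-binding Ncbp2 (8.64 ± 1.53 TPM). Lsm10 (10.9 ± 2.18 TPM) and Slbp (6.81 ± 0.899 TPM) of the U7 pathway passed and Lsm11 did not (0.63, 0.61 and 0.50 TPM). Of the 7 genes for snRNA transcription 6 passed, led by Snapc5 (11.5 ± 1.28 TPM) and Snapc2 (3.39 ± 0.282 TPM), and Snapc3 had 1.32, 0.97 and 1.39 TPM. All 14 Integrator genes, whose complex cuts the 3′ ends of snRNAs, passed, led by Ints6 (8.91 ± 0.587 TPM) and Ints3 (5.47 ± 0.489 TPM). Of the 98 with 10 or more counts in each library, 11 (11.2%) had their highest CPM in replicate 3, against the 21.0% of all genes. Their CPM in replicate 3 was 0.937 times that in replicate 1 and 0.914 times that in replicate 2 at the median.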

How the data were processed

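RNA-seq of 3 libraries of 1 condition was analysed from the deposited tables. The authors' gene table holds, per the file headers, expected counts (estimated reads per gene that need not be whole), TPM, FPKM and a posterior mean TPM, derived from transcriptome alignments. The second transcript table holds estimated counts and TPM derived directly from the reads, per the notes deposited with each library; it was summed to genes (86 genes had no row there). A first transcript table, derived like the gene table, served for 1 alternative. All used mm10 with GENCODE M21; the aligner, the quantification tools and strandedness are not stated in the labels or files. TPM has a fixed sum and divides by effective length, so few reads on a short RNA give a high TPM, and the estimate splits reads of near-identical genes.

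Members were taken by biotype from the transcript names. The members, lists and rules were chosen with earlier results of these data known. U families are members with that Rnu symbol and Gm genes with at least 90% identity (edlib) to one. A member was called detected at 1 TPM and supported at 10 expected counts in all libraries; CPM used counts on gene rows (27282444, 81509889 and 37131774). SD was taken on log2(TPM + 1), with a pseudocount of 1. Ratios between tables used means over libraries with pseudocounts of 0.1 TPM or 1 count. Rescaled TPM divides by the sum over nuclear-encoded protein-coding genes. Named members are the 10 highest in mean TPM of each class, members of the U and scaRNA lists with a count, the 5 of largest SD, the 5 of largest ratio between tables, those at 0 in 1 table and at 10 TPM in the other, and the 2 highest and any undetected gene of each protein list; others were chosen after their values were seen. No test between groups was made, as there is 1 condition; a chi-square of the counts served only to check for duplicate libraries. The measures were tested on simulated data. Python 3.11.15, pandas 2.3.3 and numpy 2.4.6 were used. Alternatives were other limits, tables, scalings and pseudocounts, thinning, and leaving out each library. One member's sequence and values are not reported here.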

Additional observations from a re-analysis of the deposited data

How the results depend on the processing

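Counts of members moved mainly with the table and with the kind of estimate. Against 65 members at 1 TPM in all libraries, 892 passed by posterior mean TPM and 40 when 10 counts were also required; other limits, FPKM, rescaled TPM and the other tables gave 54 to 83, and leaving out a library gave 65 to 70. Against 41 members with 10 counts in all libraries, the second table had 63, and leaving out a library gave 41 to 49. The members' share of TPM was 0.909%, and 1.60% by posterior mean TPM, 0.162% in the second table, 4.20% per 100 protein-coding TPM and 3.76% without Rn7s1, Rn7s2, Rn7sk, Rpph1 and Rmrp in the total; without 1 library it was 0.746% to 1.05%. Members at least 2-fold apart between the tables were 118 of 124, and became 462 of 488 with rescaled TPM, 38 of 81 in counts and 54 of 58 at a mean of 10 TPM. Over all genes it was 9102 of 9925 in TPM, 2771 of 14424 with rescaled TPM and 2919 of 16212 in counts. The share of all genes at a mean of 10 TPM is not given here. Without 1 library the members 2-fold apart were 109 to 131. The share of counts (0.0262% to 0.0372% without 1 library) stayed within 1 SD of its value in each alternative run. The median SD was 0.42 without replicate 3, 0.47 without replicate 2 and 0.73 without replicate 1, against 0.72, and 0.32 in the second table. Detection of members of 150 nt or more (17.0%) was 15.2% in the second table and 17.0% to 17.4% without 1 library, alternatives chosen after seeing the data, as was leaving Gm22009 out of the scaRNAs. Depth limits members with few counts, above all in replicate 1. No paired analysis was possible because the libraries form a single group.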
